A study of Mus musculus with 6 samples.

Results

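The heat shock proteins and co-chaperones described here are the genes Hspa1a, Hspa1b, Hspa8, Hsp90aa1, Hsp90ab1, Dnajb1, Hsph1, Hspd1, Bag3 and Bag5, chosen by symbol as inducible and constitutive chaperones with 2 BAG co-chaperones. Of these 10 genes, 8 had at least 1 probe set naming that gene alone, out of 19938 such genes on the array. Hspa1b was represented only by a probe set that also names Hspa1a, and Hsp90ab1 was not analysed here. In all, 16 probe sets named a member, 13 of them with 1 symbol and 3 with several.

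Chaperones bind unfolded stretches of other proteins and help them fold, refold or be degraded. HSP70 proteins do this in cycles of ATP hydrolysis, which J-domain proteins such as Dnajb1 start and nucleotide exchange factors such as Hsph1 and the BAG proteins end, and HSP90 receives clients from HSP70. When misfolded protein accumulates, heat shock factor 1 binds heat shock elements, repeats of the letters GAA in alternating orientation, and induces genes such as Hspa1a within minutes, while Hspa8 and Hsp90ab1 are made at all times.

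RNA came from B lineage cells sorted for green fluorescence from the small intestinal lamina propria, the connective tissue under the gut epithelium, and from the bone marrow of mice of the strain label RAG2-GFP/129Sve. Both groups carried the RAG2-GFP reporter, which marks cells that express the recombination gene Rag2 or did so until recently, and both were 17 to 25 days old and kept in a specific-pathogen-free facility with no treatment named. Each tissue gave 3 pools and each experiment used 8 to 12 mice, so a value is an average over animals and over all sorted cells. Amounts of 4.5 to 47 ng of RNA were amplified before labelling, and the question put by the labels is how the 2 tissues' profiles differ.

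Values are log2 RMA values, so a difference of 1 is a factor of 2, and differences are lamina propria minus bone marrow. Over 11 early B cell marker genes, the log2 of the summed level was 13.79 to 13.88 in the lamina propria. In the marrow it was 13.99 to 14.26. Such a sum follows its brightest genes and does not show that each gene was bright. The median difference of the 11 was -0.23, or -0.38, -0.24 and -0.16 by lamina propria pool. Their mean level in the marrow pools was 9.82 to 10.41. Over all genes at marrow levels of 9 to 10 and 10 to 11, the median differences were -0.77 and -0.43. In pool 3 these level medians were 0.00055 and 0.015. Of the 11, 10 had a negative difference and 3 lay lower without overlap. Over all genes 67.6% had a positive difference and 7.27% lay lower without overlap. The 3 were Rag1 at -1.05, Dntt at -0.51 and Rag2, the gene behind the sort reporter, at -2.35 (5.67, 5.75 and 6.06 against 7.76, 8.49 and 8.28, limma adjusted p = 0.155). The 3 lamina propria arrays were not alike. Pools 1 and 2 had a narrower spread of values than the other 4 arrays, with interquartile ranges of 2.00 and 1.94 against 2.41 to 2.47. In pools 1 and 2, genes with a marrow level of 7 to 8 differed from the marrow by medians of -1.02 and -1.07, and genes at 5 to 6 by 0.44 and 0.40. In pool 3 these medians were -0.054 and -0.019. Each gene is therefore given pool by pool. Over all 19938 genes limma called 0 (0%) at an adjusted p of 0.05, while 1103 higher and 1625 lower genes had an unadjusted p under 0.05. For a single gene, an exact permutation of 3 and 3 pools has 0.1 as its smallest two-sided p.

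Hspa1a, the main stress-induced HSP70, showed the largest difference of the 8 genes and lay above the marrow in every lamina propria pool. The lamina propria pools read 8.42, 10.16 and 9.75, and the marrow pools 6.22, 6.51 and 6.07. The lowest lamina propria pool was thus well above the highest marrow pool, and pool 3, the array closest to the marrow arrays over all genes, was as high as the others. Lamina propria averaged 9.44 ± 0.91 and marrow 6.26 ± 0.22 (SD, n = 3 each). The gap was 3.18 (95% interval 2.15 to 4.20) or 9.05-fold. The limma adjusted p was 0.155, so the gene missed the threshold. Within each array, Hspa1a stood between percentile 67.6 and 73.9 of all genes in the marrow and between 96.3 and 99.1 in the lamina propria. In RNA from sorted pools, more cells with the transcript and more transcript per cell cannot be told apart.

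The probe set shared by Hspa1a and Hspa1b, the neighbouring gene for a near-identical HSP70, showed the same order of the tissues. It read 9.42, 8.95 and 9.75 in the lamina propria and 7.03, 7.17 and 7.37 in the marrow. Again the groups did not overlap, and here pool 2 was the lowest of the lamina propria pools, whereas it was the highest for the Hspa1a probe set. The difference was 2.19 (95% interval 1.55 to 2.82) or 4.55-fold, with a limma adjusted p of 0.123 in a fit of all 35556 probe sets, of which 0.00281% were called. How much of it comes from each copy cannot be read from a probe set that names both. Whether the probe set for Hspa1a alone also takes up the other copy was not tested, so the split between the copies is uncertain.

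RefSeq's promoters for 7 of the 10 genes, each from 250 bases before to 50 after a start site (GRCm38.p6), were searched for the paired heat shock element letters GAANNTTC and TTCNNGAA. Each of these reads the same on both strands, and the 2 can overlap. Of 32851 promoters of this length in the table, 15.1% held at least 1 of them, and 0.603% held on either strand the longer run made of GAANNTTC followed directly by NNGAA. Matches lay in promoters of Hspa1a, Hspa1b, Hsph1, Hspd1 and Bag3, and none lay in those of Dnajb1 or Bag5. The 250 bases before the start are shown for 4 of them, to set the pair Hspa1a and Hspa1b side by side, to show a single pair close to a start in Hsph1 and to show the longer run in Hspd1, with the element's letters in capitals. Hspa1a lies at chr17:34972157-34972406, Hspa1b at chr17:34959239-34959488, Hsph1 at chr5:149636337-149636586 and the second start of Hspd1 at chr1:55087933-55088182, all on the minus strand.
Hspa1a: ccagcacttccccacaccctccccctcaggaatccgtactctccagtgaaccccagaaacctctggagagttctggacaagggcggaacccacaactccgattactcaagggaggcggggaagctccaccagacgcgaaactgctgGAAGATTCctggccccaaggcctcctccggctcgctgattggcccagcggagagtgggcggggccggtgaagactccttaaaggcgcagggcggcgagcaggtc
Hspa1b: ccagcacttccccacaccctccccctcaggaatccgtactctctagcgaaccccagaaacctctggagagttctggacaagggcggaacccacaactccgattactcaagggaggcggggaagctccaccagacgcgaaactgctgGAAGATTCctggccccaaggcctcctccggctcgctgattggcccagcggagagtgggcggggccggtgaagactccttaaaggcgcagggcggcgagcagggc
Hsph1: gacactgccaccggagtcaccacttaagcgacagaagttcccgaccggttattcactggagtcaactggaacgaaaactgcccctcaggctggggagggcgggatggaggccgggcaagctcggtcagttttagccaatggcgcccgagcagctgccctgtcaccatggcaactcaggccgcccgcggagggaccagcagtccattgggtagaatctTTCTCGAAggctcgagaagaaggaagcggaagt
Hspd1: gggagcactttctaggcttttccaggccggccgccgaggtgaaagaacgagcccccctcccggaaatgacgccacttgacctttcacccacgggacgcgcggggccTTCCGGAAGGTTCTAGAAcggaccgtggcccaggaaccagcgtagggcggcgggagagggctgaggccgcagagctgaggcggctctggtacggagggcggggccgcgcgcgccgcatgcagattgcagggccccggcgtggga

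Over the full 300 bases the Hspa1a and Hspa1b promoters were identical at 296 positions, and both carried GAAGATTC 104 bases before the start. The Hspd1 promoter held 3 overlapping pairs and 2 matches to the longer run, starting 144 bases before its second start, and its first start had none. Hsph1 held TTCTCGAA 33 bases before its first start and the run TTCTGGAAAGTTC after it, and Bag3 held GAAGTTTC after its start. A match is a stretch of letters in these windows, and binding of a heat shock factor to it was not tested. Of the genes that hold one, Hspa1a, Hsph1 and Bag3 had a positive difference, as had the probe set shared by Hspa1a and Hspa1b. Hspd1 had a negative one, -0.60, with a 95% interval of -1.60 to 0.39. Dnajb1 and Bag5, without a match, had a positive one.

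**Figure D1:**
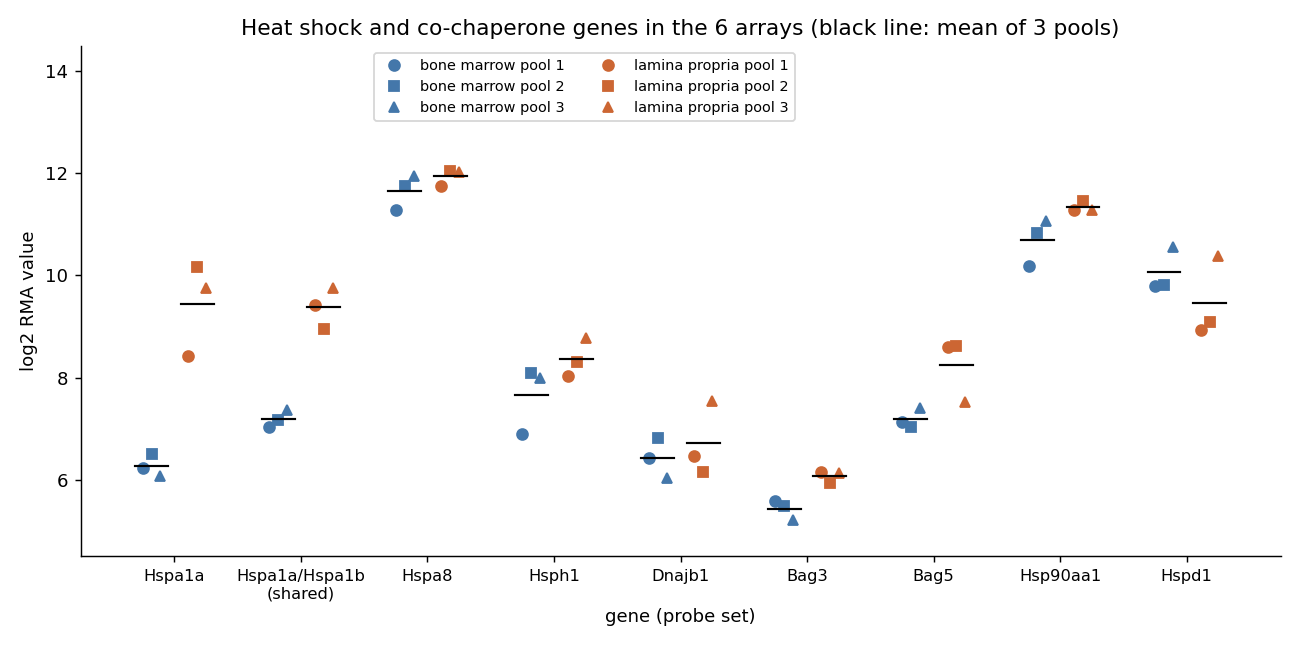
Log2 RMA values (vertical axis) of 8 genes and of the probe set shared by Hspa1a and Hspa1b (horizontal axis), 1 point per array, with marrow pools in blue, lamina propria pools in orange and a black line at the mean of 3 pools. Hspa1a and the shared probe set are the 2 columns where the tissues lie farthest apart, at 9.44 against 6.26 and 9.38 against 7.19.

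Hspa8, the constitutive HSP70 of the cytosol, was close to the top of the scale in both tissues and differed little by its brightest probe set. That probe set read 11.76, 12.04 and 12.03 in the lamina propria and 11.29, 11.74 and 11.96 in the marrow. The groups overlapped, with marrow pool 1 the lowest array. The difference was 0.28 (95% interval -0.28 to 0.84, limma adjusted p = 0.463), and 0.092 without marrow pool 1. The 2 dimmer probe sets of Hspa8 gave 0.46 and 0.65. Their 95% intervals were -0.17 to 1.10 and 0.0052 to 1.29 in the fit of all probe sets. In both, every lamina propria pool lay above every marrow pool. The size of the difference and the overlap thus depend on the probe set.

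Hsph1, the HSP110 protein that exchanges nucleotide on HSP70 and is itself induced by heat, lay higher on average, with overlap. Its lamina propria values were 8.02, 8.31 and 8.77 and its marrow values 6.90, 8.08 and 7.99. Pool 1 of the lamina propria fell between the marrow pools, and marrow pool 1 stood apart as the lowest array. The difference was 0.71 (95% interval -0.15 to 1.57, limma adjusted p = 0.359), and 0.33 without marrow pool 1. In lamina propria pool 3 alone it was 1.11.

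Dnajb1, the J-domain partner that is induced together with Hspa1a in the classical heat shock response, was not higher in all pools. It read 6.46, 6.14 and 7.55 in the lamina propria and 6.43, 6.82 and 6.03 in the marrow. Pool 3 was above every marrow array, while pools 1 and 2 lay inside the marrow range. The difference was 0.29 (95% interval -0.64 to 1.22, limma adjusted p = 0.624), and -0.13 without pool 3. The interval reaches a difference of more than 1 log2 unit, so an increase of that size is not excluded by these arrays.

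Bag3, a stress-induced co-chaperone that links HSP70 to autophagy, was modestly higher in each lamina propria pool. The lamina propria pools read 6.15, 5.93 and 6.13 and the marrow pools 5.58, 5.47 and 5.21. No lamina propria pool fell within the marrow range. The difference was 0.65 (95% interval 0.17 to 1.13, limma adjusted p = 0.356) or 1.57-fold. At the marrow level of this gene, 5.42, pools 1 and 2 lay higher for most genes, by the medians of 0.44 and 0.40 given above. In pool 3, where the median of such genes was -0.019, Bag3 lay 0.71 above the marrow mean.

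Bag5, a BAG protein that exchanges nucleotide on HSP70 and inhibits the ubiquitin ligase Parkin, was the second largest difference. It read 8.61, 8.61 and 7.51 in the lamina propria and 7.12, 7.03 and 7.40 in the marrow. The groups did not overlap, but pool 3 lay only just above marrow pool 3. The difference was 1.06 (95% interval 0.28 to 1.84, limma adjusted p = 0.356) or 2.08-fold, and 0.33 in pool 3 alone against 1.42 and 1.43 in pools 1 and 2. At the marrow level of Bag5, 7.18, the medians over all genes were the -1.02 and -1.07 of pools 1 and 2 and the -0.054 of pool 3, so Bag5 lay above its neighbours in level in each pool.

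Hsp90aa1, the stress-inducible HSP90 of the cytosol, lay above the marrow by a similar amount in each pool. It read 11.29, 11.46 and 11.28 in the lamina propria and 10.19, 10.83 and 11.07 in the marrow. The lamina propria pools were close together, the marrow pools were spread over nearly 1 unit, and the groups did not overlap. Lamina propria averaged 11.34 ± 0.10 and marrow 10.70 ± 0.46 (SD, n = 3 each). The gap was 0.65 (95% interval 0.019 to 1.27, limma adjusted p = 0.356) or 1.56-fold. All 3 probe sets of the gene gave this picture, with differences of 0.65, 0.66 and 0.65 and no overlap. Without marrow pool 1 the difference was 0.39.

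Hspd1, the mitochondrial chaperonin HSP60, was the only one of the 8 genes with a negative difference. The brighter of its 2 probe sets read 8.92, 9.09 and 10.37 in the lamina propria and 9.80, 9.82 and 10.56 in the marrow. Pools 1 and 2 were below every marrow array and pool 3 was inside the marrow range. The difference was -0.60 (95% interval -1.60 to 0.39, limma adjusted p = 0.407). The dimmer probe set read 4.63, 5.56 and 8.69 against 7.35, 8.05 and 8.20, a difference of -1.57 (95% interval -4.02 to 0.87). There pool 3 was the highest of all 6 arrays and pool 1 the lowest. In both probe sets pools 1 and 2 were lower than pool 3. Over all genes at the marrow level of the brighter probe set, 10.06, the medians were -0.46, -0.48 and 0.015 in pools 1 to 3. At that of the dimmer probe set, 7.87, they were -1.02, -1.07 and -0.054. Hspe1, the co-chaperonin HSP10, whose gene neighbours Hspd1, read 8.27, 9.28 and 10.47 against 10.43, 10.63 and 10.61, a difference of -1.22 (95% interval -2.39 to -0.038, limma adjusted p = 0.356). It too was low in pools 1 and 2 and within the marrow range in pool 3.

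**Figure D2:**
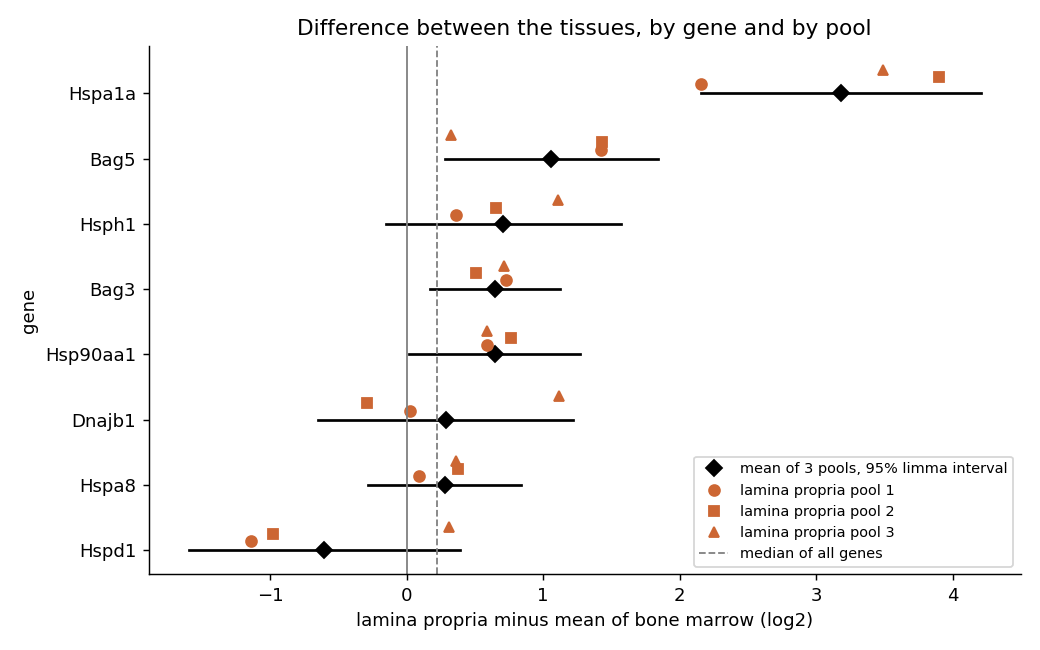
Difference from the bone marrow mean on the log2 scale (horizontal axis) for the 8 genes (vertical axis), with diamonds and lines for the mean of 3 pools and its 95% limma interval, orange symbols for each lamina propria pool and a dashed line at the median of all genes, 0.22. Hspa1a lies at 3.18 with all 3 pools above 2, and Hspd1 is the only mean below 0, at -0.60.

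Of the 8 genes, 0 passed the threshold, 7 had a positive difference and 4 (Hspa1a, Hsp90aa1, Bag3 and Bag5) lay higher without overlap. Over all genes 67.6% had a positive difference and 14.8% lay higher without overlap, while 7.27% lay lower without overlap, as 0 of the 8 did. At an unadjusted p under 0.05, the same 4 genes were higher and 0 lower, against 5.53% and 8.15% of all genes. The median difference of the 8 was 0.65, and that of all genes 0.22. By pool, the median of the 8 was 0.48, 0.58 and 0.65, so that it was as large in pool 3 as in the other pools, and 7 of the 8 lay above every marrow array in pool 3, where 24.8% of all genes did. None of the 8 lay below every marrow array in pool 3, where 26.7% of all genes did. Without pool 3, limma called Hspa1a, Bag3 and Bag5 higher (adjusted p = 0.0198, 0.0449 and 0.0109) and Hspd1 lower (adjusted p = 0.0374). In that comparison 24.1% of all genes were called higher and 12.1% lower, so a call there sets these genes little apart from the rest. Blocking on pool number, limma called 1 of the 8, Hspa1a (adjusted p = 0.0476), where 0.0802% of all genes were called and 0.01% were called higher. With a variance trend and robust variances it called 0 of the 8 and 0.201% of all genes, and with array weights 3 of the 8, where 16.9% of all genes were called higher.

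**Figure D3:**
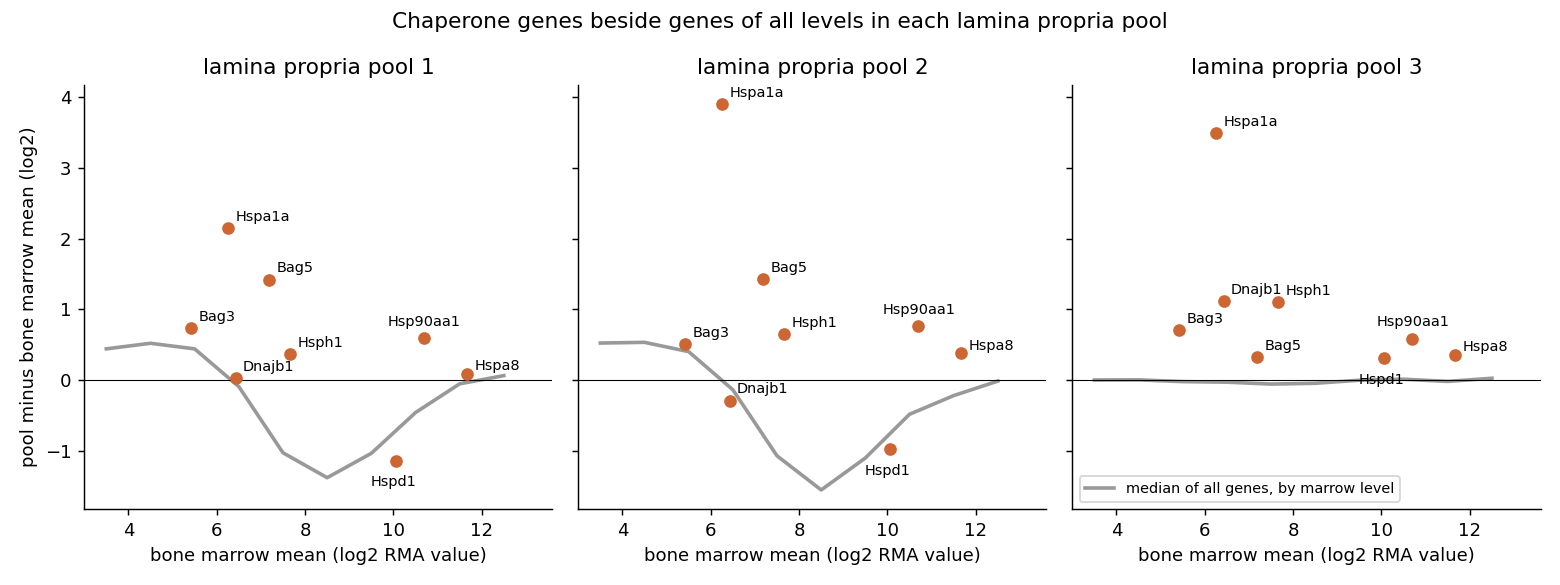
Difference of each lamina propria pool from the bone marrow mean (vertical axis, log2) against the bone marrow mean of the gene (horizontal axis, log2 RMA value), with 8 chaperone genes as points and the median of all genes by marrow level as a grey line. The grey line dips in pools 1 and 2 and is flat in pool 3, and Hspa1a lies above it in all 3 pools, by 2.15, 3.90 and 3.49 over the marrow mean.

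Other chaperone genes were mixed in direction. Across 9 further lists of heat shock factors, HSP70 relatives, J-domain proteins, exchange factors, HSP90 co-chaperones, small heat shock proteins and mitochondrial, endoplasmic reticulum and chaperonin genes, 87 of 88 genes were measured. Of these, 0 passed, and 36 had a positive and 51 a negative difference, where 67.6% of all genes had a positive one. Without overlap, 8 of the 87 lay higher and 5 lower, against 14.8% and 7.27% of all genes. The median of the 87 was -0.14. Pool by pool the medians were -0.28, -0.20 and 0.19, so their direction differed between pool 3 and the others. The mean level of the 87 in the marrow pools was 7.29 to 7.52. Over all genes at marrow levels of 7 to 8, the median difference was -0.69, or -1.02, -1.07 and -0.054 by pool. The medians of the 87 were thus not below those of genes of like level. In pool 3, 36 of the 87 lay above every marrow array and 14 below, against 24.8% and 26.7% of all genes, so lying high in that pool is not particular to the 8 genes.

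Among regulators, Hsf2, a heat shock factor, differed by -0.42 with overlap, and Hsbp1, a small protein that binds heat shock factor trimers, by -1.52 with every lamina propria pool lower. The third measured gene of this list, Hsf4, a further factor of the family, differed by 0.57 with overlap, and the list's median of -0.42 was 0.081 without lamina propria pool 2 and -0.96 without pool 3. Hsf1 was not analysed here. Of the 5 other cytosolic HSP70 and HSP110 genes 1 had a positive difference, and Hspa4 and Hspa14 differed by -0.64 and -1.27, both with overlap. The 12 other J-domain genes had a median of 0.0049, and Dnaja1 and Dnajc9, the brightest of them, differed by 0.0083 and 0.0016. With 1 array left out, the J-domain median lay between -0.16 and 0.13. The 6 other exchange factors had a median of 0.082, and Bag6, a BAG protein that holds hydrophobic clients, differed by -0.057 with overlap. Bag1, the first BAG protein described, read 9.97, 5.50 and 9.38 in the lamina propria against 9.05 to 9.35 in the marrow, so its difference of -0.91 rests on pool 2, as Bag1 was above the marrow in the other pools.

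HSP90 co-chaperones had a median of -0.21 over 13 genes, with 9 negative, but the sign rests on lamina propria pool 1. By pool the medians were -0.52, 0.15 and 0.14, and without pool 1 the median was 0.20. Ptges3, the p23 protein that stabilises closed HSP90, and St13, which binds HSP70, differed by -0.46 and -0.20, each low in pool 1 alone. Small heat shock proteins, which hold unfolded proteins without ATP, had 8 of 9 positive differences and a median of 0.28, close to that of all genes. Their median was -0.093 in pool 3, and Cryaa and Hspb9 differed by 0.39 and -0.073. Mitochondrial chaperones and proteases had a median of -0.61 over 10 genes, which was -0.80, -0.73 and -0.098 by pool, -0.35 without pool 1 and -0.36 without pool 2. Hspa9, the mitochondrial HSP70, differed by -1.41 with overlap, and in pool 3 it lay above every marrow array, by 0.91 over their mean. The 13 chaperonin and prefoldin genes had a median of -0.40, which was -0.77, -0.90 and 0.35 by pool and -0.89 without pool 3, with Cct2 at -0.18 and Cct5 at -0.37. The mean levels of the mitochondrial and chaperonin lists lie at marrow levels of 7 to 8 and 8 to 9. Over all genes at those levels the median differences were -0.69 and -0.97.

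Endoplasmic reticulum chaperones differed among themselves. Hspa5, the HSP70 of that compartment known as BiP, read 10.67, 10.66 and 10.73 in the lamina propria and 9.63, 9.90 and 9.65 in the marrow. All 3 lamina propria pools were higher by nearly the same amount, pool 3 included, and the difference was 0.96 (95% interval 0.51 to 1.41, limma adjusted p = 0.246) or 1.94-fold. Hsp90b1, the HSP90 of the same compartment, differed by -0.94 and the lectin chaperone Canx by -0.48, both with overlap. Of the 16 genes 6 were positive, and the median was -0.30 over all pools, 0.54 in pool 3, 0.069 without pool 2 and -0.69 without pool 3.

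**Figure D4:**
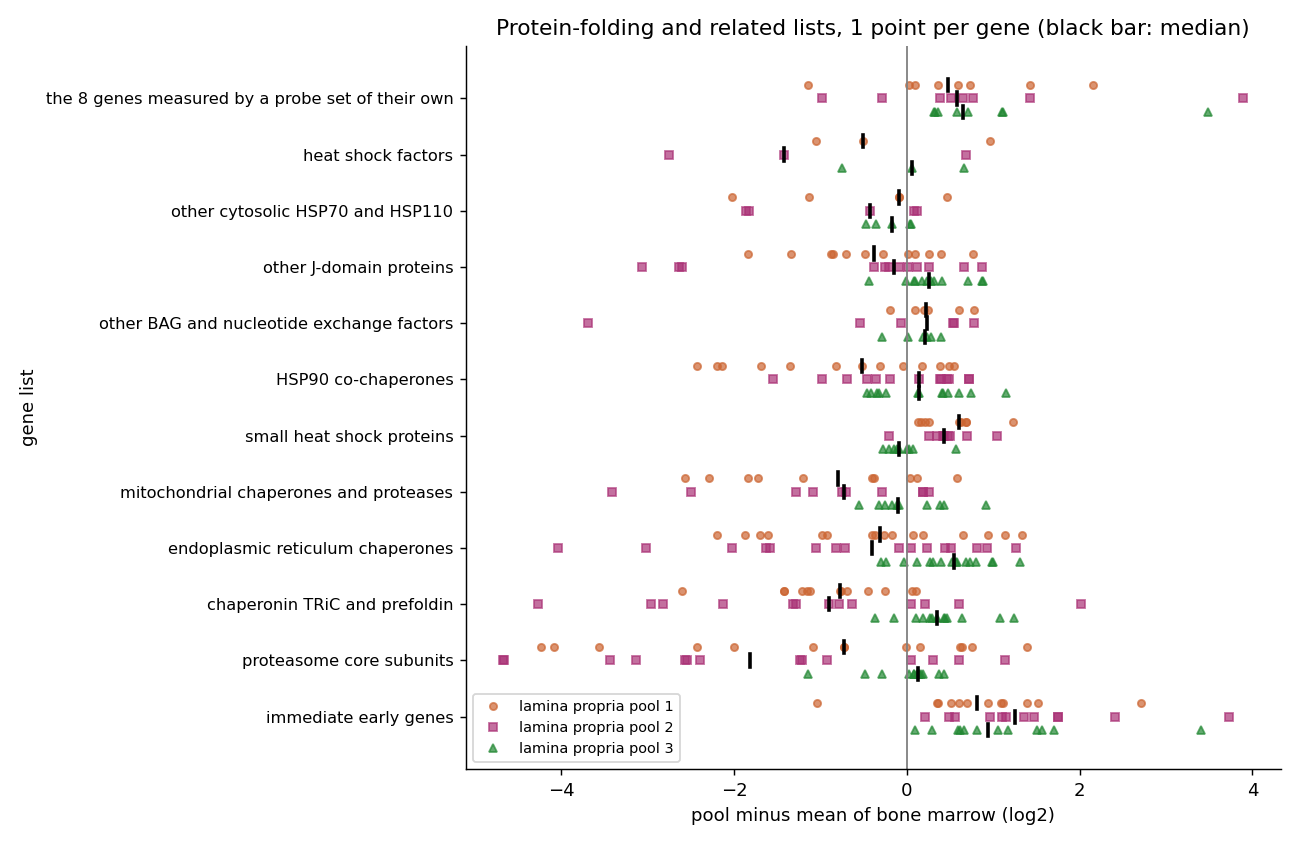
Difference of each lamina propria pool from the bone marrow mean (horizontal axis, log2) for the genes of each list (vertical axis), 1 point per gene, with circles, squares and triangles for pools 1, 2 and 3 and a black bar at the median. The medians of the 8 genes are 0.48, 0.58 and 0.65 in the 3 pools, while those of the chaperonin list are -0.77, -0.90 and 0.35.

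The genes most like Hspa1a over the 6 arrays, among 8869 genes with a range of at least 1, were Apoe (Pearson r = 0.994), Adamts1 (0.992), Ocln (0.987), Dok1 (0.984) and Atf3 (0.984). Their differences were 0.97, 0.96, 0.95, 0.89 and 3.28. Those most like Hspa8 were Ldha (0.993), Tsc22d2 (0.978), Zfp330 (0.942), Eme1 (0.923) and Zfp472 (0.922), with differences of 0.36, 0.71, 0.49, 0.54 and 0.35. These correlations are descriptions over 6 arrays that share the same 2 tissues, and Atf3 is also in the list of immediate early genes.

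Immediate early genes, which respond to stimulation and to tissue handling, were also higher on the lamina propria arrays. Of 12, 11 had a positive difference and 5 lay higher without overlap, against 67.6% and 14.8% of all genes. The median of the 12 was 1.07, or 0.82, 1.25 and 0.94 by pool, and that of all genes 0.22. Jun and Btg2, the brightest, differed by 1.13 and -0.12. Marrow pool 2 stood high in this list, with a mean level of 7.19 against 6.20 and 6.09 in the other marrow pools. It was also the highest marrow pool for the Hspa1a probe set, at 6.51 against 6.22 and 6.07, and for Hsph1 and Dnajb1. For the probe set shared with Hspa1b, marrow pool 3 was the highest (7.03, 7.17 and 7.37 in pools 1 to 3). Marrow pool 3 was also the highest for Hspa8, Hsp90aa1, Bag5 and Hspd1, and marrow pool 1 for Bag3. The part of the immediate early genes in the chaperone differences was not tested.

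Markers of other cells differed between the tissues as well. T cell markers had 10 of 10 positive differences with summed levels of 9.36 to 9.53 in the lamina propria and 8.99 to 9.21 in the marrow, and intestinal epithelium markers 12 of 12 with 9.36 to 9.63 and 8.85 to 8.996. Over all genes 67.6% were positive, and genes at marrow levels of 4 to 5 and 5 to 6, where the mean levels of these lists lie, had median differences of 0.36 and 0.30, near the lists' medians of 0.35 and 0.45. In pool 3, where those level medians were 0.0057 and -0.019, the list medians were 0.23 and 0.29. Summed levels overlapped for macrophage and dendritic cell markers (8.71 to 9.53 against 8.96 to 9.39, 5 of 10 positive), granulocyte markers (8.34 to 8.89 against 8.58 to 10.22, 5 of 9) and plasma cell markers (9.98 to 10.63 against 9.996 to 10.42, 6 of 8). They also overlapped for erythroid markers (7.66 to 8.37 against 7.73 to 7.79, 5 of 5) and for stroma and endothelium (9.14 to 9.44 against 9.30 to 9.45, 6 of 7). A summed level follows its brightest genes. Of the 8 plasma cell markers, 3 lay higher without overlap, Jchain at 1.41, Prdm1 at 0.62 and Tnfrsf17 at 0.52. Over all genes 14.8% did, and 2 of the 8 had a negative difference. Jchain, Prdm1 and Tnfrsf17 were dim, with marrow means of 3.01, 4.13 and 4.95. At marrow levels of 3 to 4 and 4 to 5, the median differences of all genes were 0.33 and 0.36. In pool 3 alone the 3 genes differed by 1.63, 0.75 and 0.19, where these level medians were 0.0036 and 0.0057. RMA values have no zero, so no marker can be said to be at 0. Among defining markers, Cd3e read 6.33, 6.51 and 6.24 against 5.84, 5.77 and 5.54, and Epcam 5.32, 4.93 and 5.43 against 4.81, 4.88 and 4.62. They belong to the 4 of 10 T cell and 4 of 12 epithelium markers that lay higher without overlap. In pool 3, 5 T cell and 7 epithelium markers lay above every marrow array, while Cd3d, Cd247 and Fabp1 lay below, against 24.8% and 26.7% of all genes. The part of such other cells in the chaperone differences was not tested.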

How the data were processed

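The log2 values are those the authors deposited. The submitters' processing notes name RMA and, as software, Affymetrix Expression Console (version 1.3.0.187). RMA generally subtracts background, equalises array distributions and summarises probes, so it can compress differences of dim genes. Of 35556 probe sets, 21789 had 1 gene symbol in the platform annotation, 1621 had several and 12146 were unnamed. Of the 21789, 21698 matched RefSeq (GRCm38.p6) by Entrez identifier, and 0 symbols changed. For genes with more than 1 such probe set, the brightest over all arrays was used.

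Tissues were compared with lmFit and eBayes (limma 3.58.1, R 4.3.3; no block, two-sided, 95% intervals). P-values of the 19938 genes were adjusted together (Benjamini-Hochberg), with 0.05 as the threshold. The method was tested on simulated data with the marrow spread in both tissues. It recovered 52.2%, 88.1% and 92.4% of changes of 1, 2 and 3 log2 units, with 10 false calls. The real lamina propria pools were less alike than that. Over all genes their arrays correlated with each other at 0.81 to 0.86, and the marrow arrays at 0.96 to 0.98. For Hspa1a the SD was 0.91 against 0.22. The simulated setting thus differs from the data, and this recovery cannot be taken as that of these arrays. Pools are the replicates, and the labels call the 3 experiments independent. Probe sets naming several genes were fitted with all probe sets, a step added after seeing the data. The members, lists and tests were chosen with earlier results of these data known. Named genes were all members, in each list the 2 brightest plus Hsf2, Hspa5 and Hspe1, and the 5 genes most correlated with Hspa1a and with Hspa8. Cd3e, Epcam, Cd3d, Cd247, Fabp1, Jchain, Prdm1, Tnfrsf17, Rag1, Rag2, Dntt and Hsf4 were picked after their values were seen. Alternatives were a replicate block, a filter at a mean of 5, median centring, cyclic loess, trend with robust variances, array weights, averaged probe sets and leaving out arrays. Precision is limited by the 6 arrays. Figures were drawn with matplotlib 3.10.9.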

Additional observations from a re-analysis of the deposited data

How the results depend on the processing

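The count of called members, 0 of 8, was the same with a filter on dim genes, median centring, cyclic loess, trend with robust variances and averaged probe sets. It was 1 (Hspa1a, limma adjusted p = 0.0476, where 0.01% of all genes were called higher) with the replicate block, 3 with array weights (where 16.9% of all genes were called higher), and 0 to 4 when 1 array was left out, the 4 without lamina propria pool 3. Over all genes the count of 0 became 16 (0.0802%) with the replicate block, 40 (0.201%) with the trend, 5586 with array weights, 1 when all probe sets were fitted together and 0 to 7222 when 1 array was left out. With 1 array left out, the median of the 8 genes was 0.36 to 0.69, and it was 0.60 with cyclic loess. Hspa1a was 2.82 to 3.69 with 1 array left out and 3.42 with cyclic loess. Dnajb1 reversed, at -0.10 with array weights and -0.13 to 0.57 with 1 array left out. Without lamina propria pools 1 and 2, a setting chosen after seeing the data, Hspd1 was 0.31, Hspa1a 3.49 (limma adjusted p = 0.363), and the median of all genes -0.0090. Whether the pool numbers pair the samples cannot be settled from 3 pools per tissue. Deviations of same-numbered pools correlated across genes at 0.131, 0.051 and 0.226. Lamina propria pools 1 and 3 correlated best with the marrow pool of the same number, and pool 2 with marrow pool 1 (0.133). The cause of these shifts was not tested.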

Other observations

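Proteasome core subunits, which degrade proteins that chaperones cannot refold, were lower by median in the lamina propria. Of 14 genes 9 had a negative difference, 2 (Psma1 at -2.20 and Psma5 at -2.94) lay lower without overlap and 1 (Psma2 at 0.55) higher, against 7.27% and 14.8% of all genes, and 0 passed over all genes (limma). The median was -0.87, or -0.73, -1.81 and 0.12 by pool, so it rested on pools 1 and 2, and it was -0.23 without pool 2 and -1.36 without pool 3. Over all genes at marrow levels of 8 to 9 and 9 to 10 the median differences were -0.97 and -0.77, about that of this list. Psma3 and Psmb4, the brightest, differed by 0.20 and -0.35.

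Pdia4, a disulfide isomerase of the endoplasmic reticulum, lay higher in every lamina propria pool, at 8.57, 8.70 and 8.11 against 7.61, 7.35 and 7.34 (difference 1.03, limma adjusted p = 0.281). Stip1, the adaptor between HSP70 and HSP90, lay lower in every pool, at 5.88, 6.47 and 7.60 against 7.68, 7.94 and 8.45 (difference -1.37, limma adjusted p = 0.356). These 2 genes, and the 3 proteasome genes without overlap, were picked after their values were seen.

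A pair of probe sets names the small nucleolar RNAs Snord14c and Snord14d together with Hspa8, whose introns hold such RNAs. The first read 7.19, 8.96 and 10.21 in the lamina propria and 7.37, 9.46 and 8.13 in the marrow. Its arrays differed by more than those of any probe set naming Hspa8 alone, and the tissues overlapped.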
